A study of Mus musculus with 18 samples.

Results

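The genes described here make and break down glycogen. They are Ugp2, Gys1 and Gbe1 on the synthesis side, Pygl on the breakdown side, and Ppp1r3g, which encodes a regulatory subunit that brings a phosphatase to glycogen. The 5 members, and the lists of other genes used below, were chosen by symbol with earlier results of these data known. All 5 members were among the 32789 genes of the table and passed the filter on low counts that left 12900 genes tested. Ppp1r3g passed it only through the libraries of 1 group, the Vhl/Hif2a knockout, so counts below are also given for the other 4 members.

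RNA was measured in mouse alveolar macrophages, which live in the air spaces of the lung; they had been washed out by lavage and picked out with CD11c microbeads. Mice of 3 crosses were used. In the first the knockout was labelled CD11c-Cre_Vhl-Hif1-KO and its control carried floxed Vhl and Hif1a. In the second the knockout was labelled CD11c-Cre_Vhl-Hif2-KO and its control carried floxed Vhl and Hif2a, a gene whose symbol is Epas1. In the third the knockout was labelled CD11c-Cre_Vhl-Hif1-Hif2-KO and its control carried all 3 floxed genes. These are called the Vhl/Hif1a, the Vhl/Hif2a and the triple cross below. CD11c-Cre is a recombinase made in cells that express CD11c, which include dendritic cells as well as alveolar macrophages. The labels give no treatment, age or sex, and do not say whether the controls lacked Cre. Each of the 6 groups had 3 libraries, 18 in all, with 19230452 to 34015320 counts each. Nothing in the labels says whether the 3 libraries of a group came from separate animals or pools, so p-values measure only the spread between these libraries, which may in part be technical.

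Glycogen is a branched store of glucose. Phosphoglucomutase and UDP-glucose pyrophosphorylase (Ugp2) turn glucose 6-phosphate into UDP-glucose, glycogen synthase (Gys1, the form of muscle and most tissues outside liver) adds it to chains begun on glycogenin, and the branching enzyme (Gbe1) creates branch points. Glycogen phosphorylase (Pygl, the form named for liver) releases glucose 1-phosphate from the chain ends. Subunits of the Ppp1r3 family, Ppp1r3g among them, tether protein phosphatase 1 to glycogen, where it removes phosphate from synthase and phosphorylase. When oxygen is present, Vhl has the alpha subunits of hypoxia-inducible factors (HIF) destroyed. Without Vhl, HIF-1α (from Hif1a) and HIF-2α (from Epas1) build up in normal oxygen, and several glycogen genes, Gys1 and Gbe1 among them, are known targets of HIF-1α in other cells. By the labels, HIF-1α could still be made in the Vhl/Hif2a knockout, HIF-2α in the Vhl/Hif1a knockout, and neither in the triple knockout. The RNA of Hif1a and Epas1, given with the libraries, did not follow these labels, and the proteins were not measured.

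The hypoxia-inducible factors bind short sites with the core ACGTG or GCGTG, so the 250 bases before the start of each member are shown to let a reader see which starts hold the core. They are RefSeq sequences on GRCm38.p6, 5′ to 3′ in the direction of transcription, with every ACGTG or GCGTG on either strand in capitals (on the opposite strand these read CACGT and CACGC). RefSeq promoters were found for 5 of the 5 members. Ugp2 has a pair of starts there, of which the upstream one is shown, and the windows are chr11:21371268-21371517, minus strand (Ugp2), chr7:45434589-45434838, plus strand (Gys1), chr16:70313699-70313948, plus strand (Gbe1), chr12:70227684-70227933, minus strand (Pygl) and chr13:35967656-35967905, plus strand (Ppp1r3g).
Ugp2: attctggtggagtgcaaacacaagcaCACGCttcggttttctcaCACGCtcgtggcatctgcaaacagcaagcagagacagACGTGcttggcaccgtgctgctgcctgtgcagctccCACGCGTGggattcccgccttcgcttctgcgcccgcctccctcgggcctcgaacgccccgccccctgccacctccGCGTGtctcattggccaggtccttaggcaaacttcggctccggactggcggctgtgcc
Gys1: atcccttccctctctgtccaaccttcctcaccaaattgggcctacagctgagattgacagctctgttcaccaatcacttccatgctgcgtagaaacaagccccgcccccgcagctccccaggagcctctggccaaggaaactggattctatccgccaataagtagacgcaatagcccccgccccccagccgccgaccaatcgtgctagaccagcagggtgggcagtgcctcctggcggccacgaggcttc
Gbe1: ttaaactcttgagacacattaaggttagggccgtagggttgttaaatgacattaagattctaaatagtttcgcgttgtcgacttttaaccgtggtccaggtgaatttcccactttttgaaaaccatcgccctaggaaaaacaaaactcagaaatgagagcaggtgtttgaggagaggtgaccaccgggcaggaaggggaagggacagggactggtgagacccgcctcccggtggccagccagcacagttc
Pygl: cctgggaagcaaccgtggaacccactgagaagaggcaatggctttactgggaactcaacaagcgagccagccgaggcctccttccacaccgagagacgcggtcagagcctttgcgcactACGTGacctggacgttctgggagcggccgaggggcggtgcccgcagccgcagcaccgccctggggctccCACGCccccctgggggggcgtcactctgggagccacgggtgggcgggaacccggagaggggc
Ppp1r3g: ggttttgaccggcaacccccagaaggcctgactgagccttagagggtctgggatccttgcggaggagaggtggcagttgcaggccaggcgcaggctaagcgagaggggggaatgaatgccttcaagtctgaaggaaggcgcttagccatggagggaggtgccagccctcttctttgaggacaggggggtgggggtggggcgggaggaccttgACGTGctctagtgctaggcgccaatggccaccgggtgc

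In the full windows of 250 bases before and 50 after the start, the upstream Ugp2 start held 1 ACGTG and 5 GCGTG, 2 of them overlapping in the run CACGCGTG, and the other Ugp2 start held neither. Pygl held 1 ACGTG, whose first base lies at -131 from the start, and 1 GCGTG on the opposite strand at -62. Ppp1r3g held 1 ACGTG at -38. Gys1 and Gbe1 held neither core on either strand. None of these windows held CACGTG, the E-box that contains ACGTG. Among all 32851 promoters of the table, 43.8% held ACGTG or GCGTG, 19.6% ACGTG, 32.4% GCGTG and 7.15% CACGTG. The cores are therefore common, a match is not a bound site, and no match says only that these letters are not in this window. The annotated Pygl and Ppp1r3g genes also begin upstream of the windows shown.

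Some facts of the libraries bear on what follows. Vhl RNA lay between 1.92 and 3.09 CPM in the 9 knockout libraries and between 12.2 and 20.1 CPM in the 9 controls, where CPM is a count set relative to its library total after TMM scaling, so that libraries of unequal depth can be compared. Hif1a RNA was lowest in the Vhl/Hif2a knockout, whose label does not name that gene, at 58.7 to 78.6 CPM against 179 to 242 in its control (3.28-fold lower, log2 fold change -1.71 ± 0.182 SE, edgeR adjusted p = 4.31e-06). It lay between 166 and 208 CPM in the Vhl/Hif1a knockout and between 225 and 231 in its control (log2 fold change -0.24, edgeR adjusted p = 0.662), and between 236 and 241 CPM in the triple knockout and 137 and 251 in its control (0.19, 0.565). Epas1 was higher in the Vhl/Hif2a knockout, at 48.0 to 58.5 CPM against 23.2 to 35.1 in its control (log2 fold change 0.97 ± 0.191 SE, edgeR adjusted p = 0.00187), and was not called in the triple knockout, at 30.6 to 38.4 against 32.6 to 51.4 CPM. Counts over whole genes include exons outside a deleted part and do not check these deletions, so the knockouts are named throughout by their labels. The part of the lower Hif1a RNA in the Vhl/Hif2a results was not tested. Triple control 2 stood apart from the other libraries of its group (chi-square per degree of freedom of 122 and 124 against them, and between 8.58 and 42.6 for the other pairs of replicates). Egln3, a gene that HIF raises, lay between 289 and 547 CPM in both double knockouts and at most at 0.724 in the triple cross, but was 32.5 CPM in Vhl/Hif1a control 3 and 11.5 CPM in Vhl/Hif2a control 1, with at most 2.47 CPM in the other controls of the double crosses. All 12 alveolar macrophage markers were tested, with summed levels between 22690 and 39810 CPM in every library. In bulk RNA, fewer cells of a type and less RNA per cell cannot be told apart.

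Per length of transcript (RPKM, the CPM divided by the exon length in kilobases), the members kept 1 order in the control macrophages. In the 3 control groups Pygl averaged 79.2 to 98.7 RPKM, Ugp2 52.5 to 57.9, Gys1 5.48 to 6.85, Gbe1 1.15 to 1.29 and Ppp1r3g 0.0243 to 0.0633. Breakdown RNA thus stood above synthase RNA: for every 100 RPKM of Pygl the controls had between 4.98 and 11.5 RPKM of Gys1. Pygl made up between 89.4% and 92.8% of the phosphorylase RNA of the control libraries on the same scale, with Pygb, the brain form, at 7.66 to 8.02 RPKM and Pygm, the muscle form, at 0.128 to 0.152 RPKM in the group means. Gys2, the liver synthase, had 0 counts in all 18 libraries. The plot of each member by library shows these levels beside those of the knockouts.

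**Figure D1:**
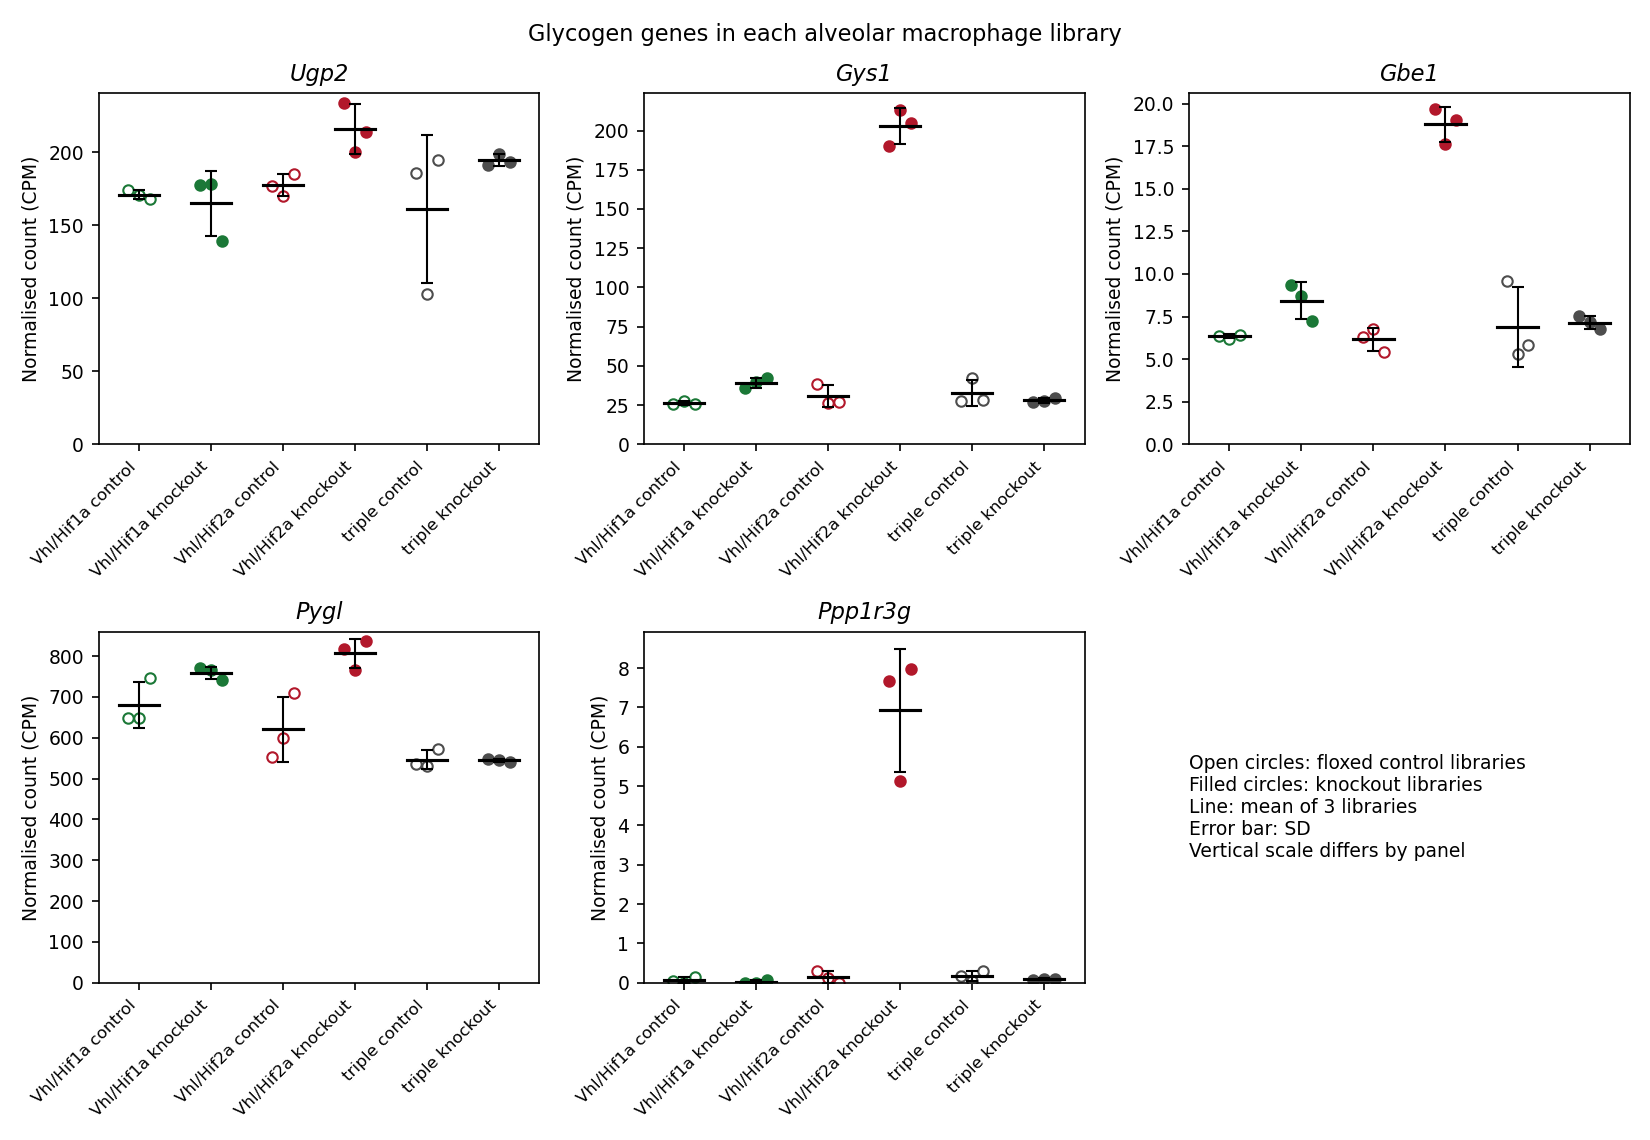
Normalised counts (CPM) of Ugp2, Gys1, Gbe1, Pygl and Ppp1r3g in each of the 18 libraries, with the mean and SD of the 3 libraries of a group and a separate vertical scale for each gene. The Vhl/Hif2a knockout libraries lie above all other libraries for Gys1 (190 to 213 CPM), Gbe1 (17.7 to 19.7 CPM) and Ppp1r3g (5.12 to 7.98 CPM), and triple control 2 is the low Ugp2 point at 103 CPM.

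Gys1, glycogen synthase, changed most among the enzymes. It stood at 190, 213 and 205 CPM in the Vhl/Hif2a knockout libraries and at 38.7, 26.1 and 26.9 CPM in their controls. It stood at 35.7, 39.5 and 42.4 CPM in the Vhl/Hif1a knockout and at 25.6, 27.4 and 25.8 CPM in its control. In the triple knockout it stood at 26.8, 27.8 and 29.7 CPM, against 27.7, 42.5 and 28.2 CPM in the control. The knockouts of both double crosses thus lay above all their own controls, those of the triple cross did not, and the highest controls were triple control 2, which stood apart from its group, and Vhl/Hif2a control 1, which had raised Egln3. Gys1 rose 6.64-fold in the Vhl/Hif2a knockout (log2 fold change 2.73 ± 0.161 SE, edgeR quasi-likelihood test adjusted p = 3.38e-09, n = 3 libraries per group), higher in 3 of 3 libraries. It rose 1.49-fold in the Vhl/Hif1a knockout (log2 fold change 0.58 ± 0.155 SE, edgeR adjusted p = 0.0498), a call just under the threshold of 0.05. That call was lost without any 1 of the 6 libraries of its cross (log2 fold change 0.52 to 0.65, edgeR adjusted p up to 0.193), with a replicate block (0.104) and with total counts in place of TMM (0.0654). In the triple knockout the log2 fold change was -0.22, with a 95% interval from -0.55 to 0.10. Ordered by mean, the Vhl/Hif2a knockout (203 ± 11.4 CPM) was followed by the Vhl/Hif1a knockout (39.2 ± 3.38), the triple control (32.8 ± 8.37), the Vhl/Hif2a control (30.6 ± 7.07), the triple knockout (28.1 ± 1.47) and the Vhl/Hif1a control (26.3 ± 1.02; SD, n = 3 each). From the second group down, the ranges of neighbours overlapped.

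The Gys1 gene, ENSMUSG00000003865 (chr7:45434844-45456619, GRCm38), shares 310 exonic bases, 6.47% of its exons, with Ruvbl2 on the other strand. The strand setting of the counting is not given in the sources used here, so reads of that stretch cannot be told apart.

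Ugp2, which makes the UDP-glucose that synthase uses, was not called in any knockout. Its levels were 234, 200 and 214 CPM in the Vhl/Hif2a knockout against 177, 170 and 185 in the control, 178, 178 and 139 CPM in the Vhl/Hif1a knockout against 174, 171 and 168, and 192, 199 and 193 CPM in the triple knockout against 186, 103 and 195. Every Vhl/Hif2a knockout library lay above its controls, while the ranges overlapped in the other 2 crosses. The log2 fold changes were 0.28 (95% interval -0.06 to 0.63, edgeR adjusted p = 0.302) in the Vhl/Hif2a, -0.05 (-0.40 to 0.30, 0.947) in the Vhl/Hif1a and 0.27 (-0.07 to 0.62, 0.44) in the triple knockout. The Vhl/Hif2a value was called when triple control 2 was left out of the fit (0.28, edgeR adjusted p = 0.0207), and that library, with the lowest Ugp2 of all 18, lies in none of the groups compared. It was also called when only the 6 libraries of the cross were fitted (0.0459). A missed threshold here does not show that Ugp2 stayed the same. Ugp2 is ENSMUSG00000001891 (chr11:21321138-21371201) and shares 78 exonic bases, 2.54% of its exons, with Gm12043 on the other strand.

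Gbe1, the branching enzyme, followed Gys1 with a smaller change. The Vhl/Hif2a knockout libraries had 19.7, 17.7 and 19.1 CPM and their controls 6.28, 6.75 and 5.44 CPM. The Vhl/Hif1a knockout had 9.35, 8.71 and 7.23 CPM against 6.37, 6.21 and 6.44 in its control, and the triple knockout 7.51, 7.19 and 6.74 CPM against 9.60, 5.32 and 5.80. Both double knockouts lay above all their controls, and in the triple cross the knockouts lay between the control values. Gbe1 rose 3.05-fold in the Vhl/Hif2a knockout (log2 fold change 1.61 ± 0.175 SE, edgeR adjusted p = 5.48e-06). The log2 fold change in the Vhl/Hif1a knockout was 0.41 ± 0.176 SE (edgeR adjusted p = 0.299, 95% interval 0.04 to 0.78), which did not pass. In the triple knockout it was 0.04 (-0.33 to 0.41). The group means ran from 18.8 ± 1.03 CPM in the Vhl/Hif2a knockout and 8.43 ± 1.09 in the Vhl/Hif1a knockout down to 7.15 ± 0.385 (triple knockout), 6.91 ± 2.35 (triple control), 6.34 ± 0.117 (Vhl/Hif1a control) and 6.16 ± 0.668 (Vhl/Hif2a control; SD, n = 3). From the second group down, the ranges of neighbours overlapped. Gbe1 (ENSMUSG00000022707, chr16:70313949-70569716) had no other annotated gene in its span.

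Pygl, the phosphorylase that these macrophages mainly transcribe, moved far less than Gys1. It stood at 818, 766 and 836 CPM in the Vhl/Hif2a knockout and at 554, 599 and 709 CPM in its control. It stood at 770, 765 and 741 CPM in the Vhl/Hif1a knockout and at 647, 649 and 746 CPM in its control, and in the triple cross at 547, 546 and 541 CPM against 536, 531 and 573. The Vhl/Hif2a knockouts lay above all their controls, whereas in the Vhl/Hif1a cross control 3, the library with high Egln3, reached the knockout range. Pygl rose 1.30-fold in the Vhl/Hif2a knockout (log2 fold change 0.38 ± 0.0853 SE, edgeR adjusted p = 0.00558), higher in 3 of 3 libraries. The log2 fold change was 0.16 in the Vhl/Hif1a knockout (95% interval -0.02 to 0.34, edgeR adjusted p = 0.493) and -0.0039 in the triple knockout (-0.18 to 0.18).

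The control groups of Pygl also differed. The mean was 681 ± 56.3 CPM in the Vhl/Hif1a control, 620 ± 79.8 in the Vhl/Hif2a control and 546 ± 23.1 in the triple control (SD, n = 3). The first was called above the last (log2 difference 0.32 ± 0.0853 SE, edgeR adjusted p = 0.0407), with 1 of the 5 members called where 5.4% of the genes tested were. That call was lost in 8 of 14 alternatives, among them leaving out any 1 of the 3 Vhl/Hif1a controls (0.0635 to 0.207) and leaving out triple control 1 (0.0679) or 2 (0.0771). No member was called between the Vhl/Hif1a and Vhl/Hif2a controls (0.341% of genes called) or between the Vhl/Hif2a and triple controls (3.42%). By edgeR, 0 members had an unadjusted p under 0.05 in the former and 1 in the latter, and DESeq2 also called 0 in both. Pygl (ENSMUSG00000021069, chr12:70190811-70231488) lies 3.67 Mb from Hif1a on chromosome 12. By the labels, both control groups of the called Pygl difference carry floxed Hif1a. The part of that allele in the difference was not tested.

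Ppp1r3g was close to silent in every group but 1. The Vhl/Hif2a knockout libraries held 232, 165 and 267 counts of it (7.67, 5.12 and 7.98 CPM), and their controls 6, 3 and 0. The Vhl/Hif1a knockout held 0, 0 and 2 counts and its control 1, 0 and 4, and the triple knockout held 2, 3 and 3 and its control 5, 1 and 8. Only in the Vhl/Hif2a cross did the knockout and control counts not overlap with the knockout higher. The rise there was 49.4-fold (log2 fold change 5.63 ± 0.661 SE, edgeR adjusted p = 1.27e-05), from 664 counts summed over the knockouts and 9 over the controls. The group sums correspond to 6.92 CPM (exact Poisson 95% interval 6.41 to 7.47) and 0.134 CPM (0.0614 to 0.255), intervals that cover counting error only. For the Vhl/Hif1a and triple crosses the sums of 2 to 14 counts per group are too few for a fold, and no member of those comparisons was called through Ppp1r3g. Even at its highest, Ppp1r3g stayed low per length, at 2.57 ± 0.582 RPKM (SD, n = 3), below Gbe1 at 3.51 ± 0.193 and Gys1 at 42.3 ± 2.38 in the same libraries. The gene is ENSMUSG00000050423 (chr13:35958839-35970388), and an annotated antisense gene shares none of its exonic bases.

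**Figure D2:**
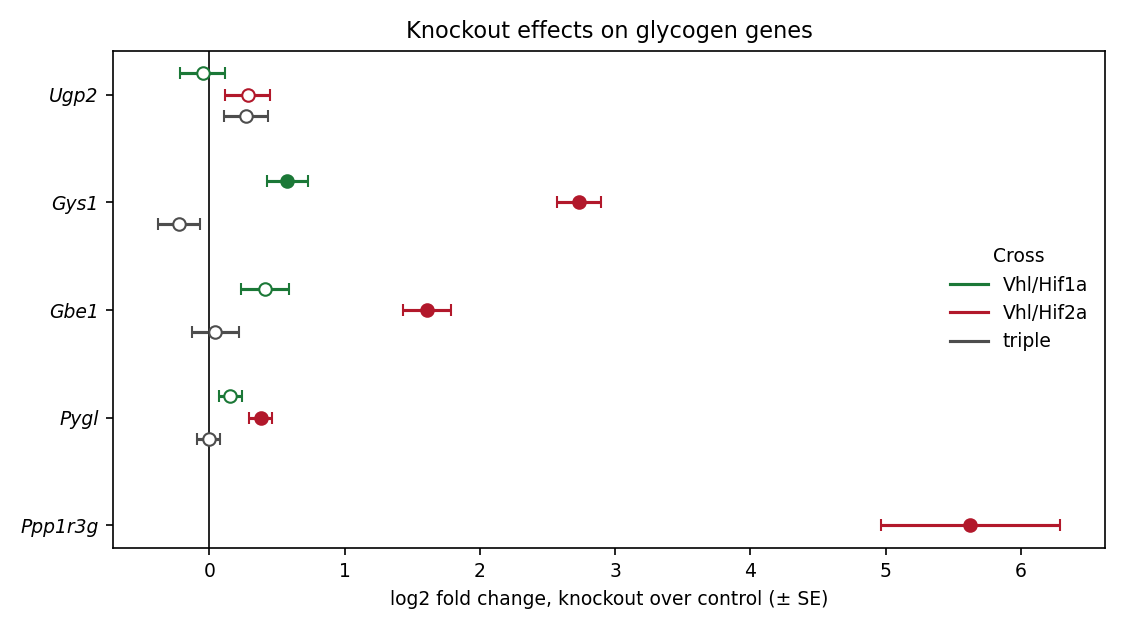
Log2 fold change of each member, knockout over control, with its SE, in the 3 crosses. Filled points passed an edgeR adjusted p of 0.05, and Ppp1r3g is drawn for the Vhl/Hif2a cross alone, since the others held 2 to 14 counts per group. Gys1 is filled at 2.73 in the Vhl/Hif2a cross and at 0.58 in the Vhl/Hif1a cross, and all triple points drawn are open.

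Over the 5 members, 4 were called higher in the Vhl/Hif2a knockout, 1 in the Vhl/Hif1a knockout and 0 in the triple knockout, and none was called lower. Of all genes tested, 7.68% were called higher in the Vhl/Hif2a, 2.22% in the Vhl/Hif1a and 0.031% in the triple comparison, and 14.7%, 3.64% and 0.0388% were called in either direction. The members were chosen with earlier results of these data known, so these shares give a scale and no test of the set. Without Ppp1r3g, whose entry into the test depended on the Vhl/Hif2a knockout, the count in that knockout was 3 of 4. The median log2 fold change of the 5 members was 1.61, 0.16 and -0.0039 in the Vhl/Hif2a, Vhl/Hif1a and triple crosses, beside 0.00322, -0.000688 and -0.0102 over all genes tested. These medians include Ppp1r3g, which entered the test only through the Vhl/Hif2a knockout. It raised the first median and lowered the others. Its values in the Vhl/Hif1a and triple crosses rest on too few counts for a fold. The medians are therefore no measure of the gap between crosses. The other members had 2.73 (Gys1), 1.61 (Gbe1), 0.38 (Pygl) and 0.28 (Ugp2) in the Vhl/Hif2a knockout. In the same order they had 0.58, 0.41, 0.16 and -0.05 in the Vhl/Hif1a knockout. In the triple knockout they had -0.22, 0.04, -0.0039 and 0.27. By rank of log2 fold change among the 12900 genes in the Vhl/Hif2a comparison, Gys1 was at 115, Gbe1 at 278, Pygl at 1794 and Ugp2 at 2419. Ppp1r3g, which entered the test only through that knockout, was at 18. With edgeR, 0 members of the triple cross had an unadjusted p under 0.05, and DESeq2 also called 0. A two-sided exact permutation test of log2(CPM + 0.5) on 3 libraries against 3 cannot go below p = 0.1. Its p was 0.1 for all 5 members in the Vhl/Hif2a cross and for Gys1 and Gbe1 in the Vhl/Hif1a cross, and 0.2 to 1 for the other 8 of the 15 tests.

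The difference between crosses was tested as a contrast of the knockout effects, and the tests named next share the libraries of the Vhl/Hif2a cross. The Vhl/Hif2a effect exceeded the Vhl/Hif1a effect for 3 of 5 members, or 2 of 4 without Ppp1r3g, where 1.63% of all genes were called in that direction and 2.44% in either. The log2 difference was 2.15 ± 0.22 SE for Gys1 (edgeR adjusted p = 1.27e-05), 1.20 ± 0.247 SE for Gbe1 (0.0126) and 6.91 ± 1.66 SE for Ppp1r3g (0.033). The Ppp1r3g value rests on 2 counts in the Vhl/Hif1a knockout and 5 in its control and was lost in 9 of 21 alternatives, with an edgeR adjusted p of 0.634 without Vhl/Hif1a control 3. It was also lost without Vhl/Hif1a knockout 1 (0.0645) or 2 (0.0703), Vhl/Hif1a control 1 (0.0671), Vhl/Hif2a knockout 1 (0.0614) or 3 (0.0565) and Vhl/Hif2a control 2 (0.0651), and with a replicate block (0.0848). Without both controls that had high Egln3, Gbe1 was lost as well (1.20, edgeR adjusted p = 0.0574), and Gys1 alone remained. For Ugp2 the difference was 0.33 (95% interval -0.16 to 0.82) and for Pygl 0.22 (-0.03 to 0.48).

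The Vhl/Hif2a effect exceeded the triple effect for the same 3 members, again 2 of 4 without Ppp1r3g, by 2.95 ± 0.221 SE for Gys1 (edgeR adjusted p = 1.76e-07), 1.57 ± 0.246 SE for Gbe1 (0.000565) and 6.52 ± 1.13 SE for Ppp1r3g (0.00133). Of all genes, 4.91% were called in that direction and 7.99% in either. The Ppp1r3g value rests on 8 counts in the triple knockout and 14 in its control, too few for a fold in that cross, so its size is uncertain. The Pygl difference of 0.38 ± 0.121 SE did not pass (edgeR adjusted p = 0.0623), but passed by DESeq2 (0.0259), without Vhl/Hif2a control 3 (0.0106) and without triple control 2 (0.0463). For Ugp2 the difference was 0.01 (95% interval -0.48 to 0.50). Between the Vhl/Hif1a and triple effects no member was called by edgeR, 1 had an unadjusted p under 0.05, and 2.04% of all genes were called (1.5% with the Vhl/Hif1a effect larger). That member was Gys1, with a difference of 0.80 ± 0.219 SE (edgeR adjusted p = 0.0778). It passed in 4 of 20 alternatives: by DESeq2 (0.016), with no filter (0.0366) and without triple control 1 (0.0423) or 3 (0.042). In the other 16 it did not pass, with an edgeR adjusted p up to 0.202. Without single libraries the difference ranged from 0.57 to 0.91. The triple effect of Gys1 was -0.22, and 0.0054 without triple control 2, the library that stood apart from its group.

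Because Gys1 and Pygl changed unequally, their per-length balance shifted in the Vhl/Hif2a knockout. For every 100 RPKM of Pygl, the Vhl/Hif2a knockout libraries had 36.3 ± 3.35 RPKM of Gys1 and their controls 7.27 ± 2.46 (SD, n = 3), and the ranges of 33.5 to 40.0 and 5.47 to 10.1 did not overlap. In the Vhl/Hif1a cross the values were 7.45 ± 0.787 in the knockout and 5.58 ± 0.561 in the control, with ranges of 6.67 to 8.24 and 4.98 to 6.09. In the triple cross they were 7.42 ± 0.436 and 8.69 ± 2.46, with overlapping ranges. Gbe1 per 100 RPKM of Gys1 was lower in the Vhl/Hif2a knockout, at 8.34 ± 0.913 against 18.6 ± 4.35 in the control, so that branching enzyme RNA did not keep pace with synthase RNA.

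The Ppp1r3 subunits were led by Ppp1r3d and Ppp1r3b in the controls. Ppp1r3d held 56.2% ± 2.46, 54.2% ± 2.80 and 49.2% ± 0.428 of the summed Ppp1r3 RPKM in the Vhl/Hif1a, Vhl/Hif2a and triple controls (SD, n = 3). Ppp1r3b, the subunit first described in liver, held 24.3% ± 2.20, 25.5% ± 2.01 and 23.7% ± 4.49. In the Vhl/Hif2a knockout the summed level was 30.0 ± 2.92 RPKM against 18.1 ± 0.843 in the control. Ppp1r3b then held 42.1% ± 2.57, Ppp1r3d 33.7% ± 2.90 and Ppp1r3g 8.51% ± 1.20, the last against 0.293% ± 0.317 in the control. The Ppp1r3d level itself was 10.1 ± 1.77 RPKM in that knockout and 9.81 ± 0.963 in its control. It was not called (log2 fold change 0.05, edgeR adjusted p = 0.876), so its smaller share reflects the larger sum. Ppp1r3b held 36.8% ± 3.25 in the Vhl/Hif1a knockout and Ppp1r3g 0.0392% ± 0.0678. The ranges of the Ppp1r3b share in both double knockouts lay above those of their controls, and in the triple cross they overlapped.

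**Figure D3:**
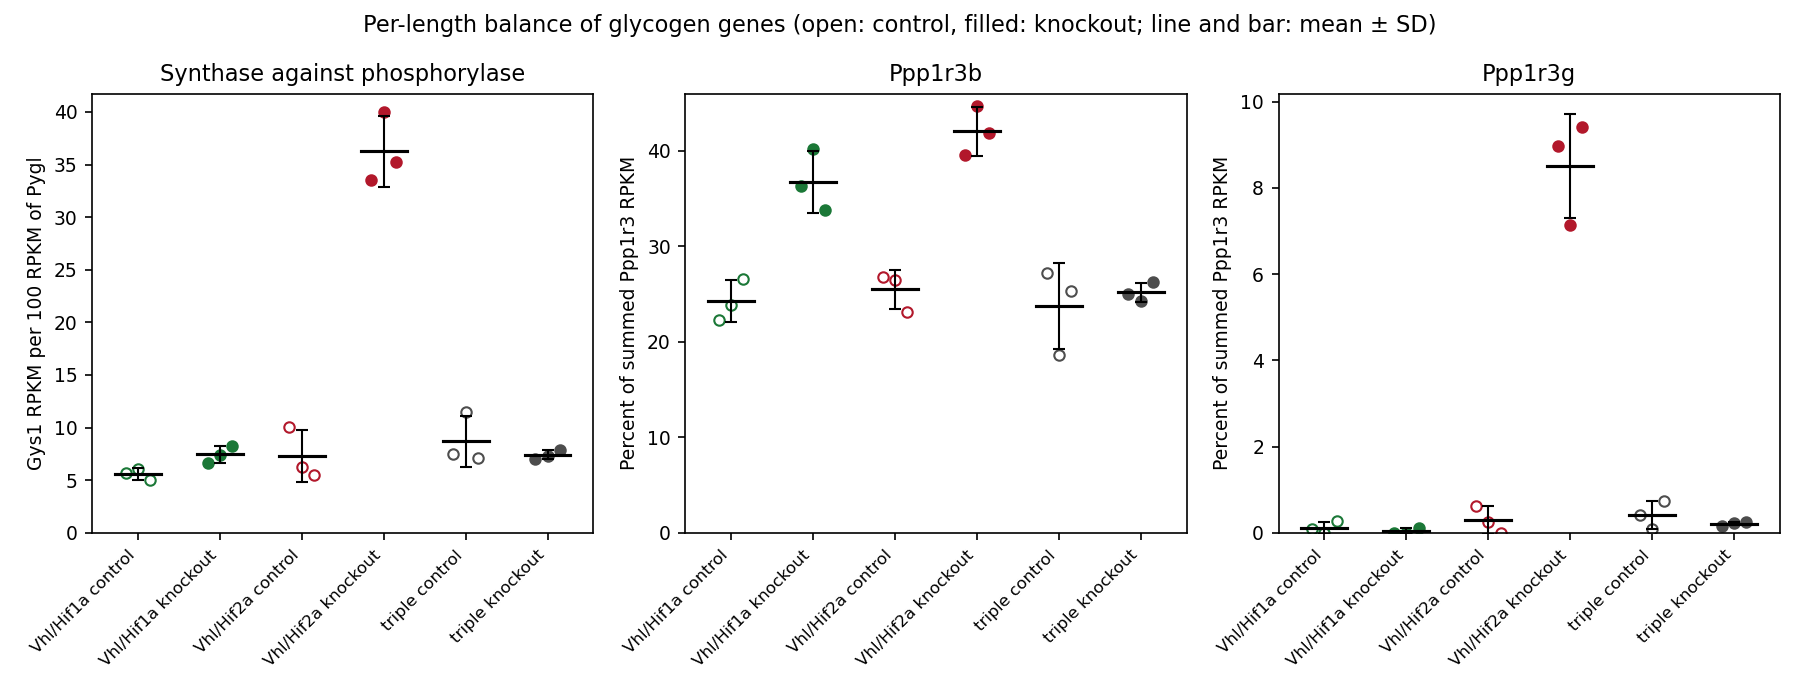
Gys1 RPKM per 100 RPKM of Pygl (left) and the shares of Ppp1r3b and Ppp1r3g in the summed RPKM of the Ppp1r3 family (middle and right), for each library, with group mean and SD. The 3 Vhl/Hif2a knockout libraries sit between 33.5 and 40.0 in the left panel, where no other library exceeds 11.5, and the Ppp1r3b share is raised in both double knockouts.

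The remaining genes of glycogen metabolism were taken as a list of 36, of which 30 were tested. In the Vhl/Hif2a knockout 4 of the 30 were called higher and 1 lower, so that 16.7% were called beside 14.7% of all genes. Of the list, 1 gene was called higher in the Vhl/Hif1a knockout, or 3.33% beside 3.64%. Both shares, counted in either direction, are near the background. By direction, the 4 of 30 called higher in the Vhl/Hif2a knockout stand beside 7.68% of all genes. The 1 called lower there stands beside 904 of 12900 genes. For the 1 called higher in the Vhl/Hif1a knockout the share of all genes was 2.22%. These counts carry no test. In the triple knockout 0 were called by edgeR, with 2 at an unadjusted p under 0.05 and 0 by DESeq2. The median log2 fold change of the list was 0.0514, -0.0195 and -0.0407 in the Vhl/Hif2a, Vhl/Hif1a and triple knockouts, close to that of all genes. Most of the list, including the 7 tested subunits of phosphorylase kinase with the calmodulins, both Gsk3 kinases and the 3 catalytic subunits of protein phosphatase 1, was not called in any knockout. The list covers enzymes of opposite roles, so its counts say nothing of net glycogen, which was not measured.

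Pgm1, the phosphoglucomutase that interconverts glucose 6-phosphate and glucose 1-phosphate, showed the largest change of the list. It stood at 126, 139 and 126 CPM in the Vhl/Hif2a knockout and at 26.6, 23.9 and 25.7 CPM in the control (log2 fold change 2.36 ± 0.0876 SE, edgeR adjusted p = 2.37e-11). In the Vhl/Hif1a and triple crosses every library, knockout or control, lay between 21.4 and 30.6 CPM. Pgm1 shares 398 exonic bases, 13.6% of its exons, with Itgb3bp on the other strand. Slc37a4, which carries glucose 6-phosphate into the endoplasmic reticulum, rose from 15.6 ± 1.08 to 36.9 ± 0.413 CPM (log2 fold change 1.24 ± 0.106 SE, edgeR adjusted p = 3.08e-07). Epm2a, the glycogen phosphatase laforin, rose from 23.9 ± 1.89 to 49.8 ± 4.19 CPM (log2 fold change 1.06 ± 0.107 SE, edgeR adjusted p = 2.23e-06; SD, n = 3). Neither passed in the other 2 crosses.

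Ppp1r3b was the 1 list gene called in both double knockouts. It stood at 78.2, 73.9 and 82.0 CPM in the Vhl/Hif2a knockout and at 30.1, 28.4 and 27.3 CPM in the control (log2 fold change 1.45 ± 0.095 SE, edgeR adjusted p = 1.42e-08). In the Vhl/Hif1a cross it stood at 53.0, 50.4 and 51.9 CPM in the knockout and at 26.5, 30.3 and 35.2 CPM in the control (log2 fold change 0.76 ± 0.0941 SE, edgeR adjusted p = 6.75e-05). In the triple cross it stood at 23.5, 23.9 and 27.2 CPM against 24.4, 22.6 and 24.4. Both double knockouts lay wholly above their controls, and the ranges of the triple cross overlapped. The Vhl/Hif2a effect exceeded the Vhl/Hif1a effect by 0.69 ± 0.132 SE (edgeR adjusted p = 0.00659), and the Vhl/Hif1a effect exceeded the triple effect by 0.69 ± 0.134 SE (0.0094).

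Gyg, glycogenin, was the list gene called lower in the Vhl/Hif2a knockout, at 136, 107 and 121 CPM against 207, 126 and 186 in the control (log2 fold change -0.51 ± 0.14 SE, edgeR adjusted p = 0.0198). The ranges overlapped, and the call was lost in 6 of 15 alternatives, among them leaving out Vhl/Hif2a control 1 (0.122) or 3 (0.0819) and Vhl/Hif2a knockout 2 (0.0871) or 3 (0.059). The Vhl/Hif2a control was itself above the other controls in Gyg. The Vhl/Hif1a control lay 0.72 ± 0.14 SE below it on the log2 scale (log2 difference -0.72, edgeR adjusted p = 0.0357) and the triple control was exceeded by 0.56 ± 0.14 SE (0.0364). These calls were lost in 7 of 15 and 6 of 14 alternatives. Pygb was called in no cross, with group means between 35.5 and 39.6 CPM and log2 fold changes of 0.04, 0.07 and -0.0986 in the Vhl/Hif1a, Vhl/Hif2a and triple crosses (edgeR adjusted p = 0.93, 0.692 and 0.578). Pygm was at or below 0.488 CPM in every group mean.

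**Figure D4:**
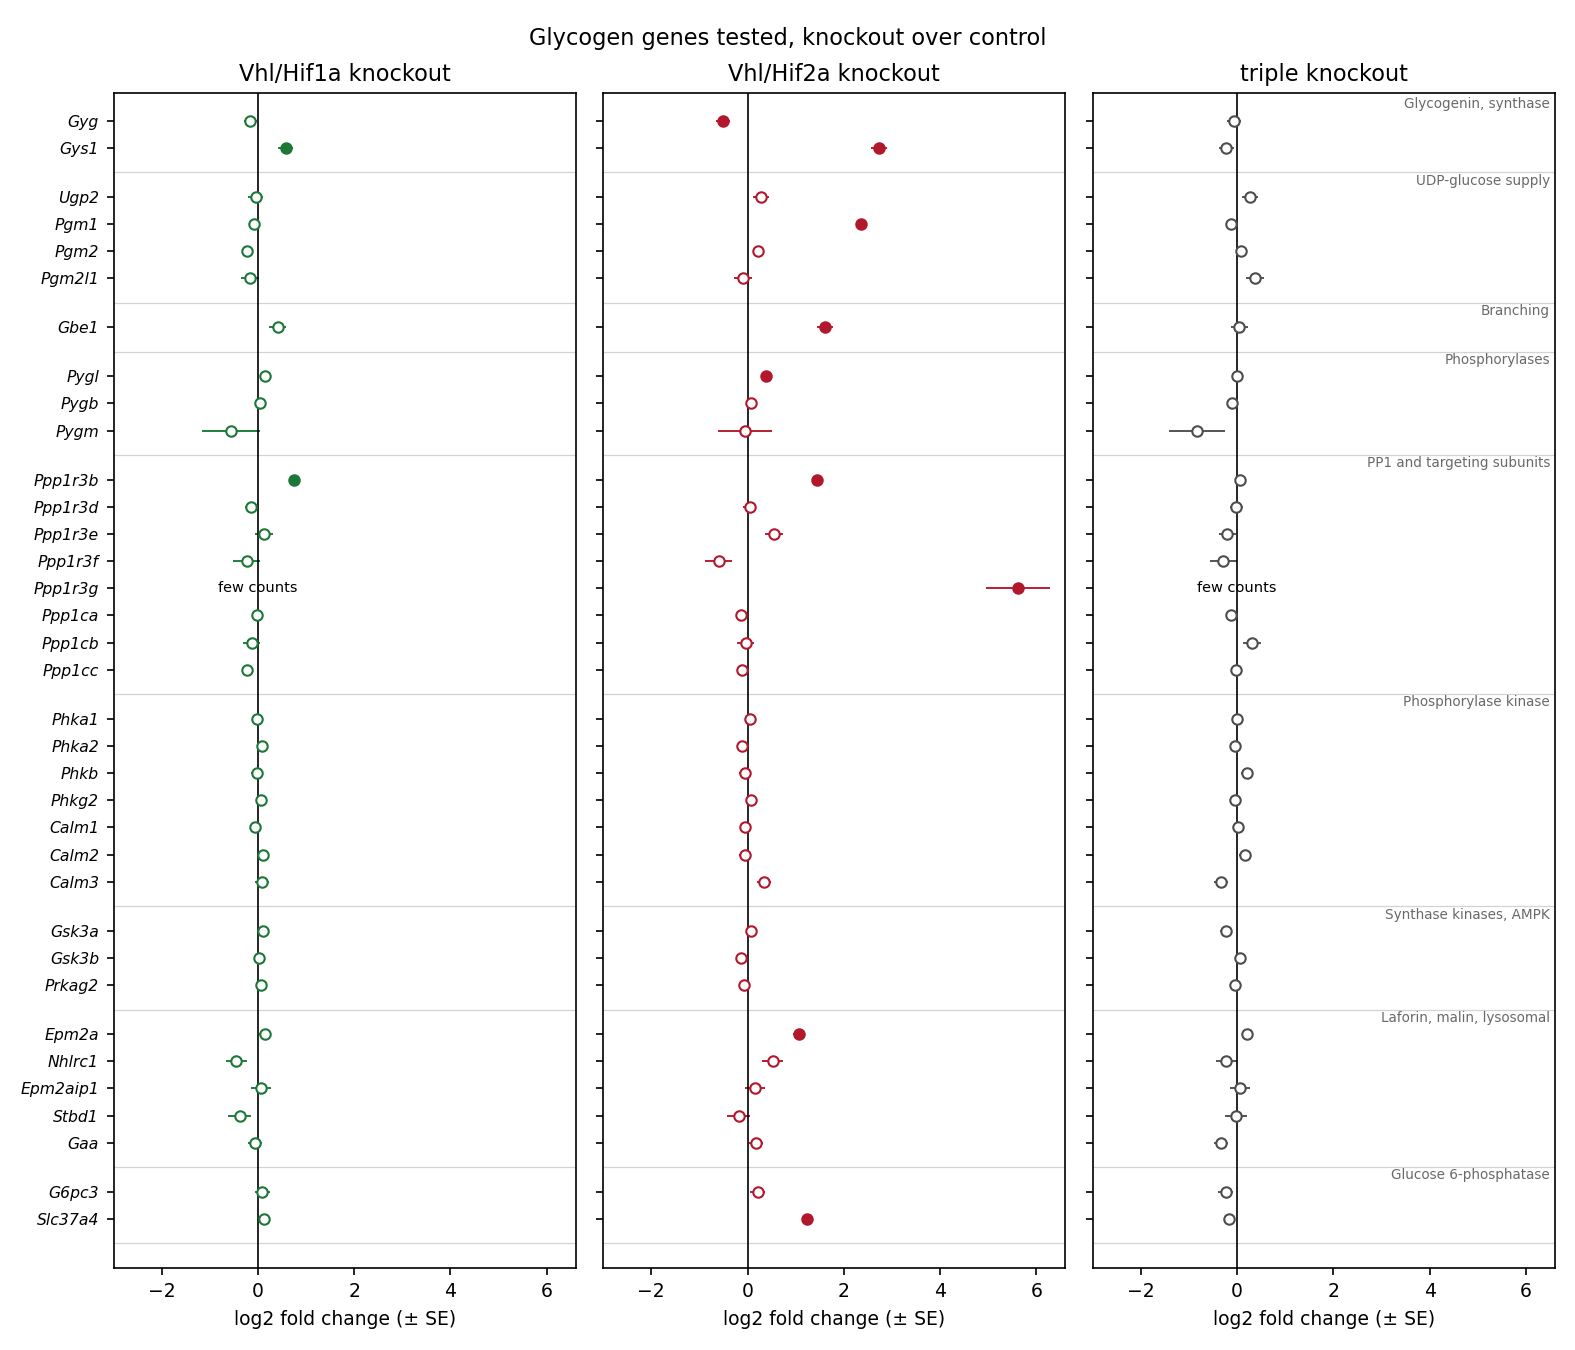
Log2 fold change with SE of the 5 members and the 30 other glycogen genes tested, grouped by role, in the 3 knockouts. Filled points passed an edgeR adjusted p of 0.05. The middle panel (Vhl/Hif2a) holds 9 filled points, 8 of them to the right of 0 and Gyg to the left, the left panel (Vhl/Hif1a) holds Gys1 and Ppp1r3b, and the right panel (triple) holds none.

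Between the effects, 4 genes of the list had a larger Vhl/Hif2a than Vhl/Hif1a effect (Pgm1, Slc37a4, Epm2a and Ppp1r3b), the same 4 a larger Vhl/Hif2a than triple effect and 1, Ppp1r3b, a larger Vhl/Hif1a than triple effect. These are 13.3%, 13.3% and 3.33% of the list, beside 1.63%, 4.91% and 1.5% of all genes called in the same directions. In either direction, 2.44%, 7.99% and 2.04% of all genes were called. Ppp1r3b and Ppp1r3d were also higher in the Vhl/Hif1a than in the triple control, by 0.37 ± 0.095 SE (edgeR adjusted p = 0.036) and 0.49 ± 0.134 SE (0.0426). They were 6.67% of the list, beside 5.4% of all genes called in either direction and 312 of 12900 called higher. The calls were lost in 6 and 8 of 14 alternatives. Each knockout effect is set against the control of its own cross. A difference between effects therefore contains the difference between their controls, with the opposite sign. The higher Ppp1r3b of the Vhl/Hif1a control thus enters its Vhl/Hif1a less triple difference with a minus sign. Control differences also touch any level set across crosses.

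Genes whose profiles over the 18 libraries were most like a member were found by the root mean square difference of log2(CPM + 0.5) after centring each gene, among 10614 genes with a mean of at least 1 CPM. For Gys1 they were Hk1 (0.173), Grhpr (0.202) and Pgam1 (0.223), where Gys1's own SD over the libraries was 1.03. Hk1 is a hexokinase and Pgam1 a glycolytic mutase. The log2 fold changes of Hk1, Grhpr and Pgam1 in the Vhl/Hif2a knockout were 2.32, 2.65 and 2.57. In the Vhl/Hif1a knockout they were 0.51 (edgeR adjusted p = 0.0209), 0.08 (0.933) and 0.80 (2.83e-05). For Gbe1 (own SD 0.558) they were Ero1l (0.176), Bco2 (0.207) and Kdm3a (0.218). For Ppp1r3g (own SD 1.37) they were Pgk1 (0.181), Colgalt2 (0.362) and Stc2 (0.398), and the pseudocount compresses the low Ppp1r3g values in this measure. For Ugp2 (own SD 0.245) they were Npm1 (0.049), Eif4e (0.0748) and Ptpn2 (0.0752), and for Pygl (own SD 0.231) Necap1 (0.0982), Lsm14b (0.1) and D2hgdh (0.101). The libraries share depth and scaling, and these distances carry no test.

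Markers of other cells moved with some of these comparisons. The calls below stand beside 14.7%, 3.64% and 0.0388% of all genes called in the Vhl/Hif2a, Vhl/Hif1a and triple knockouts. Neutrophils hold much glycogen, and 7 of their 11 markers were tested. Their summed level was 127.4 to 158 CPM in the Vhl/Hif2a knockout and 123.4 to 204.3 in its control. These ranges overlapped, while S100a8 was called higher and Csf3r and Cxcr2 lower. Ly6g was at 0 in all 6 groups. In the Vhl/Hif1a cross the sum was lower in the knockout, at 77.5 to 88.6 against 155.9 to 165.9 CPM, with 3 markers called lower and 1 higher. In the triple cross the sum was higher in the knockout, at 151.1 to 174.9 against 136.9 to 146.7 CPM, with 0 markers called. The 8 dendritic cell markers summed to 34.92 to 36.93 CPM in the Vhl/Hif2a knockout and 43.43 to 92.94 in the control, with 4 called lower. In the Vhl/Hif1a cross they summed to 28.49 to 43.97 against 42.15 to 54.97 CPM, with 0 called. The triple cross had 38.42 to 43.28 against 36.71 to 68.09 CPM, also with 0 called. The 6 monocyte and interstitial macrophage markers summed to 20.93 to 23.06 against 9.894 to 19.26 CPM in the Vhl/Hif2a cross. They summed to 21.55 to 30.13 against 15.02 to 19.28 CPM in the Vhl/Hif1a cross. For the triple cross these sums were 10.77 to 14.56 against 11.02 to 16.18 CPM, with 0 called. Of the 5 tested, Ccr2 was called higher and C1qb lower in the Vhl/Hif2a knockout, and F13a1 higher in the Vhl/Hif1a knockout. Lung epithelial markers, 4 of 6 tested, summed to 292.8 to 348.1 CPM in the Vhl/Hif2a knockout against 255.6 to 401.2, with 0 called. In the Vhl/Hif1a cross they summed to 26.21 to 45.76 against 65.73 to 73.82 CPM, with Epcam called lower. In the triple cross they summed to 165.3 to 186.6 against 207.9 to 247 CPM, with 0 called. T and NK cell markers stayed at or below 0.6173 CPM, B cell markers at or below 0.9311 and erythrocyte markers at or below 3.431. The alveolar macrophage sum, most of which was Chil3, lay above the control range in all 3 knockouts, at 33360 to 39810 against 28420 to 29620 CPM in the Vhl/Hif1a, 33700 to 36180 against 24840 to 28720 in the Vhl/Hif2a and 32930 to 33500 against 22690 to 30070 in the triple cross. Its members did not move as 1: in the Vhl/Hif2a knockout 5 of 12 were called higher (Marco, Chil3, Fabp4, Itgax and Fabp1) and 2 lower (Siglecf and Krt79), in the Vhl/Hif1a knockout Fabp4 was called higher and Siglecf lower, and in the triple knockout Itgax, which encodes CD11c, was called higher. The part of these cells in the glycogen gene changes was not tested.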

How the data were processed

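PolyA RNA of alveolar macrophages was sequenced from a directional kit, per the labels' protocols. Per the submitters' processing notes, reads passed FastQC and cutadapt and were aligned with STAR to GRCm38. The sources used here do not give versions, counting tool, annotation or strand setting. By its values, of which 89.251% were exactly whole, the deposited table holds expected counts per gene, a unit that no label names. No column belonged to other samples.

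Rounding of the deposited expected counts was decided once decimals were seen. Genes were filtered with filterByExpr on the 6 groups. The filter left 12900 of 32789 genes, with 99.967% of counts. edgeR 4.0.16 in R 4.3.3 fitted a quasi-likelihood model with TMM scaling and 1 coefficient per group to all 18 libraries. A call needed a p-value, adjusted by Benjamini-Hochberg over all genes tested, under 0.05. SE is the log2 fold change divided by the square root of F, which is approximate. The comparisons were each knockout against its control, the differences between these effects, and the controls against each other. The model was tested on counts simulated from its own fitted spread, with changes placed only in genes averaging at least 1 CPM. That check held no outlying library and does not cover a gene near 0 in most groups, such as Ppp1r3g. No pair of replicates agreed within sampling noise.

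RPKM used union exon lengths of GENCODE M21, matched by identifier for 99.77% of 32789 genes. Promoters came from RefSeq on GRCm38.p6. Library totals of 19230452 to 34015320 make 3 counts, the limit that a count of 0 allows, 0.0882 to 0.156 CPM. Reads carry no molecular identifiers here, so intervals cover counting error only.

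Named were all members, the 3 targeted genes, the list genes called in any knockout, Pygb, Pygm, Gys2 and Gyg, and the 3 genes most like each member. Egln3 was singled out, and Ppp1r3d named, after their values were seen. One item of the list of glycogen genes is not reported here. The members and lists were chosen with earlier results of these data known. Alternatives were RLE factors, total counts, DESeq2 1.42.0, no filter, a filter of 1 CPM in 3 libraries, only the groups compared, a replicate block and leaving out each library. Added after seeing the data were leaving out triple control 2 where it was not compared, and both controls with high Egln3.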

Additional observations from a re-analysis of the deposited data

Results flagged for a closer look

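These genes drew attention because the knockout effect differed between crosses by the edgeR test of the difference itself (n = 3 libraries per group), and the comparisons named first and second share the libraries of the Vhl/Hif2a cross. The Vhl/Hif2a effect exceeded the Vhl/Hif1a effect, on the log2 scale, by 2.15 for Gys1, 1.20 for Gbe1, 6.91 for Ppp1r3g, 0.692 for Ppp1r3b, 2.43 for Pgm1, 0.924 for Epm2a and 1.12 for Slc37a4. It exceeded the triple effect by 2.95 for Gys1, 1.57 for Gbe1, 6.52 for Ppp1r3g, 1.39 for Ppp1r3b, 2.49 for Pgm1, 0.861 for Epm2a and 1.41 for Slc37a4. Both Ppp1r3g values rest on 2 to 14 counts per group in the Vhl/Hif1a and triple crosses, and the gene was tested only through the Vhl/Hif2a knockout. The Vhl/Hif1a effect exceeded the triple effect by 0.694 for Ppp1r3b, a gene of the list called in both double knockouts. The values for Gys1, Ppp1r3b, Pgm1, Epm2a and Slc37a4 in these comparisons passed under every alternative run. Those for Gbe1 and Ppp1r3g against the Vhl/Hif1a effect did not, in 1 and 9 of 21 alternatives.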

How the results depend on the processing

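Calls of Gys1, Gbe1, Pygl and Ppp1r3g in the Vhl/Hif2a knockout held in all 15 alternatives. Over the gene values, 944 alternatives kept direction and side of the threshold, 60 lost the call, 9 gained it and 28 changed direction. No other scaling moved the median of all genes by more than 0.0473 (log2). With 3 libraries per group, small changes such as that of Ugp2 are the ones these data cannot settle. The causes of the changes below were not tested.

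Members called in the Vhl/Hif1a knockout fell from 1 to 0 with total counts and with both high-Egln3 controls removed, and ranged from 0 to 1 without single libraries. Members called for the Vhl/Hif2a less the Vhl/Hif1a effect fell from 3 to 1 with those 2 controls removed. For the Vhl/Hif1a less the triple effect they rose from 0 to 1 with DESeq2 and with no filter, and ranged from 0 to 1 without single libraries. For the Vhl/Hif1a less the triple control they fell from 1 to 0 with no filter, with only the groups compared and without the 2 controls, and ranged from 0 to 1. Other glycogen genes called in the Vhl/Hif1a knockout numbered 2 in place of 1 with total counts and DESeq2, and 1 to 2 without single libraries. For the Vhl/Hif2a less the triple effect they numbered 4 to 7, with 7 without triple control 1.

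Replicate numbers showed no clear pairing of knockouts with controls. Same-numbered libraries correlated at -0.27 to 0.225 in their deviations, and 3 of 9 knockout libraries correlated best with the control of their own number. With 3 libraries per group, this check cannot exclude a pairing. With the replicate block, members called in the Vhl/Hif1a knockout numbered 0, and genes called numbered 194 in place of 315 (Vhl/Hif2a less Vhl/Hif1a effect) and 150 in place of 263 (Vhl/Hif1a less triple effect). The block turned Ugp2 in the Vhl/Hif2a less the triple effect to -0.0444.

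Over all genes, calls without single libraries ranged from 275 to 861 (469 with all) for the Vhl/Hif1a, 1249 to 2907 (1895) for the Vhl/Hif2a and 3 to 4 (5) for the triple knockout. Both upper values, 861 and 2907, came without triple control 2. They ranged from 213 to 503, 675 to 1390 and 161 to 401 for the differences of effects in the order of the report, and 18 to 56, 211 to 1187 and 141 to 858 for the controls (Vhl/Hif1a less Vhl/Hif2a, Vhl/Hif1a less triple, Vhl/Hif2a less triple). DESeq2 called 13 genes in the triple knockout, 482 and 470 for the Vhl/Hif1a effect against the Vhl/Hif2a and triple effects, and 86, 1291 and 966 for the controls. Fits of only the groups compared called 2 in the triple knockout, 680 for the Vhl/Hif2a less the triple effect, and 66 and 17 for the Vhl/Hif1a and Vhl/Hif2a less the triple controls. Without the 2 high-Egln3 controls, 25 and 243 genes were called for the Vhl/Hif1a less the Vhl/Hif2a and the triple controls.

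Changes of direction all concerned uncalled log2 values. Without single libraries Ugp2 ranged from -0.11 to 0.0582, Ppp1r3g from -3.98 to 0.204 and Pygb from -0.0315 to 0.136 in the Vhl/Hif1a knockout. In the triple knockout Gys1 ranged from -0.332 to 0.00543 (the last without triple control 2), Gbe1 from -0.113 to 0.361, Pygl from -0.0242 to 0.0314, Gyg from -0.125 to 0.028 and Ppp1r3b from -0.00597 to 0.101. Ugp2 ranged from -0.146 to 0.248 in the Vhl/Hif2a less the triple effect, and Ppp1r3g from -3.09 to 1.10 in the Vhl/Hif1a less the triple effect. With total counts, Pygl in the triple knockout was 0.00264, Ugp2 in the Vhl/Hif2a less the triple effect -0.0161 and Pygb in the Vhl/Hif1a knockout -0.00236. With only the groups compared the first 2 were 0.00416 and -0.00109. Without the 2 high-Egln3 controls, Ppp1r3g was 0.204 in the Vhl/Hif1a knockout and 1.10 against the triple effect.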
